A study of Homo sapiens with 6 samples.

Results

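The RAB family of vesicle GTPases was followed in HT29 cells, an established human line from a colorectal adenocarcinoma. Its members were taken by symbol: genes named RAB, a number and at most 1 letter from A to D, each read by probe sets that list no other gene. This gave 57 of the 19775 genes measured, on 138 probe sets, 22 genes with 1 probe set and 35 with several. RAB34, RAB6C and RAB6D appear in the platform annotation only on probe sets shared with other genes and have no value here, and most probe sets of RAB6A are shared too, so that RAB6A rests on 1 probe set.

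Cells were plated at 300000, and a day later 3 cultures were given polyphenolic cocoa extract, 500 µg with no volume stated, and 3 were given saline. The controls are called untreated in the sample titles. Medium (F12, 7% serum) and plates (100 mm) were the same for all, and RNA was taken after 24 h and read on 6 oligonucleotide arrays, 1 per culture. This is 1 tumour line, and no source used here says whether the cultures were independent experiments. The spread behind each p-value is therefore that between these cultures, which may be technical.

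RAB proteins are small GTPases that mark the membranes of the secretory and endocytic routes. A RAB bound to GTP sits in a membrane through prenyl groups at its end and recruits effectors, such as motor adaptors, tethers and fusion factors. Exchange factors load it with GTP, GTPase-activating proteins switch it off, and GDI returns it to the cytosol. In gut epithelium these proteins sort apical and basolateral cargo, build the brush border and serve the release of mucin and hormone granules.

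All values are taken as log2 expression, a base inferred from the RMA method that the submitters name, and every fold rests on it. They were deposited with the median of every probe set over the 6 arrays at 0. They give differences between arrays and no levels, so members cannot be ranked by abundance and the identity of the cells cannot be checked by marker levels. Of 12 colon epithelium markers 2 were higher with cocoa and 0 lower in limma, CDH17 (0.56, SE 0.115, adjusted p = 0.0126) and GPA33 (0.24, SE 0.0679, 0.0481). This is 16.7% of the markers, beside 13.5% of all genes. At an unadjusted p below 0.05 there were 4 (33.3%), beside 27.1% of all genes. Of 6 fibroblast markers 0 changed in limma (also 0 at an unadjusted p below 0.05), and of 5 leukocyte markers 1 rose, CD14 (0.75, SE 0.114, adjusted p = 0.00321). Fewer cells of a type and less RNA per cell cannot be told apart in such data. Cocoa arrays 2 and 3 stood apart in the control probe sets: the 18S ribosomal RNA signal was 3.31 and 1.40 there. It was −0.51 in the remaining cocoa array and ranged over the control arrays from −1.12 to 0.51. The 5′ minus 3′ signal of actin and GAPDH was −0.26 and −0.05 in the same arrays and between 0.01 and 0.03 in the others. Values with these signals as a covariate are given beside the named genes whose call changed with one of them or whose 18S-adjusted difference was far from the reported one. Both arrays that stood apart were cocoa arrays, so these signals and the extract overlap in the design. Where a call changed with a covariate, the part of the signal and that of the extract cannot be told apart. This holds for the markers CDH17 and GPA33. Their limma adjusted p was 0.0997 and 0.204 with 18S as a covariate, and 0.0605 and 0.17 with the 5′ minus 3′ signal. CD14 passed with either (0.0147 and 0.0141). In 6 fits that each left out 1 array, CDH17 passed in 5 and GPA33 in 1.

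Few RAB genes changed with the extract. At a limma adjusted p below 0.05 (Benjamini-Hochberg over all genes), RAB26 and RAB29 rose and RAB8A fell, 3 of 57 members (5.26%), where 13.5% of all genes passed. By direction the members' counts of 2 higher and 1 lower stand beside 7.36% and 6.12% of all genes. The median difference, cocoa minus control, was 0.02 over the members and −0.012 over all genes, and 51 members (89.5%) lay within 1.2-fold either way, as did 84.4% of all genes. The 2 groups of arrays did not overlap in 17 members, 9 higher and 8 lower, which is 29.8% against 32.5% of all genes. At an unadjusted p below 0.05 there were 15 members (26.3%) against 27.1% of all genes.

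The members called depended on single arrays, as did the share of all genes. Without control array 1 or control array 2 only RAB26 passed (8.21% and 6.65% of all genes). Without control array 3 there were 3 members (9.23%), and without cocoa array 1 there were 4 (14.6%), with RAB4A added. Without cocoa array 2 or cocoa array 3 there were 3 (9.04% and 9.75%), but not the same 3. RAB26 and RAB29 passed in both of these fits, RAB8B only without cocoa array 2 and RAB35 only without cocoa array 3. With the 18S signal as a covariate 2 members passed, RAB26 and RAB8B, beside 5.58% of all genes, and the same 2 passed with the 5′ minus 3′ signal (7.14%).

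**Figure D1:**
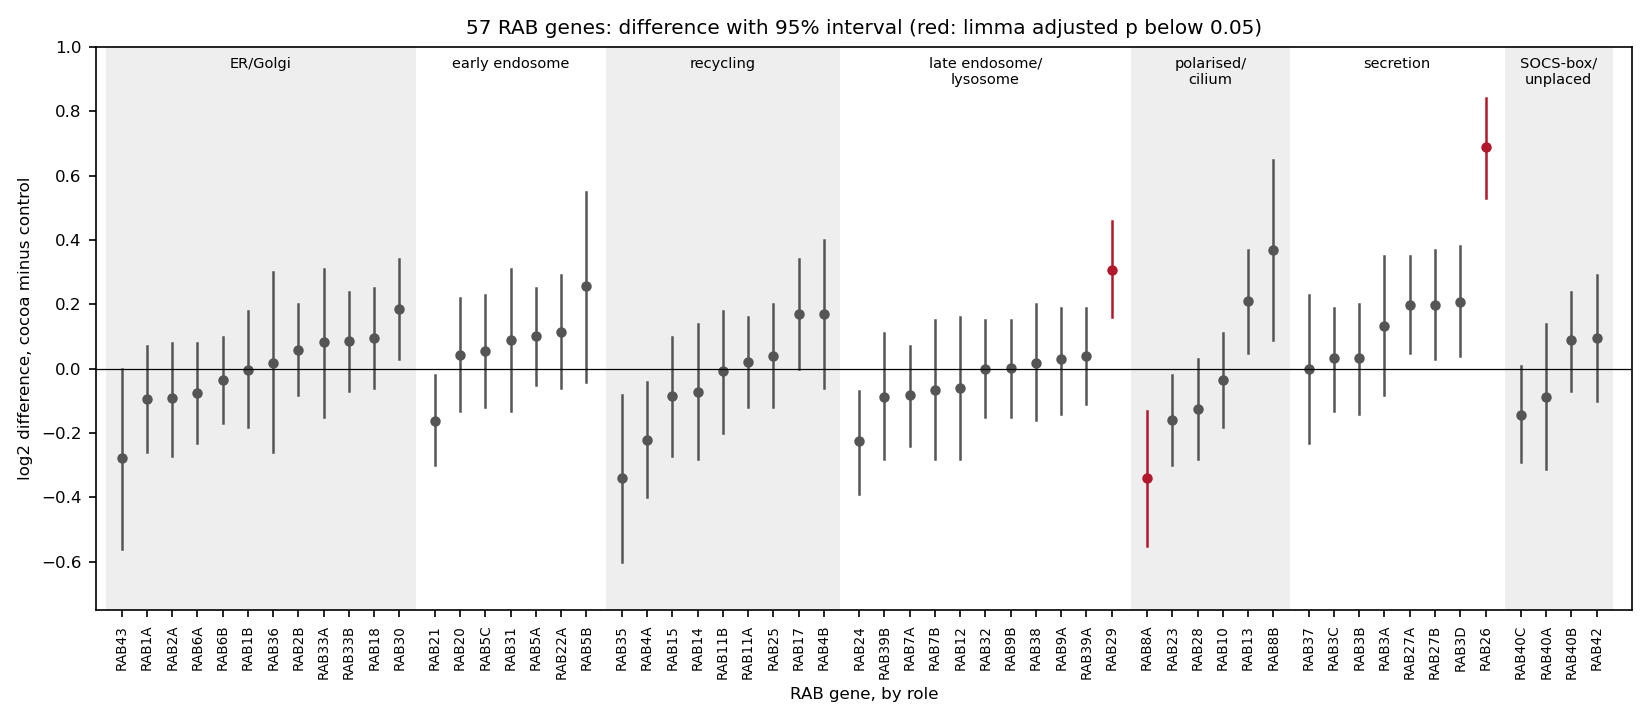
Difference in log2 expression, cocoa minus control, for the 57 RAB genes ordered by role; points are differences of group means (n = 3 arrays each), bars the 95% interval of the limma fit, red marks an adjusted p below 0.05. RAB26 stands highest at 0.69, and RAB29 (0.31) and RAB8A (−0.34) are the other members past the threshold.

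The stretches before the start site of members that the results turn on are shown. RAB8A, which fell (−0.34, limma adjusted p = 0.0417), can so be set beside its near copy RAB8B. RAB8B did not pass, but its difference was larger in size (0.37, limma adjusted p = 0.0817). RAB29 is added as a changed member, and RAB27A as the member that holds a core of the interferon-stimulated response element. They are the 250 bases upstream of the RefSeq start on GRCh38.p14, 5′ to 3′ along the gene. Capitals mark GC boxes (GGGCGG on either strand) in RAB8A, RAB29 and RAB8B, and the core of the interferon-stimulated response element, searched on both strands, in RAB27A. A promoter was matched for 45 of the 57 members, and RAB26 is not among them.
RAB8A, chr19:16111639-16111888, forward strand: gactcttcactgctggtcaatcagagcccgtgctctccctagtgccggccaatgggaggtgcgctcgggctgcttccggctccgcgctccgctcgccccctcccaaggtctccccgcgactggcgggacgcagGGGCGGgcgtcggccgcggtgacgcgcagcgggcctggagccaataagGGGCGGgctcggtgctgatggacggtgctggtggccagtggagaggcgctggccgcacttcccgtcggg
RAB8B, chr15:63189356-63189605, forward strand: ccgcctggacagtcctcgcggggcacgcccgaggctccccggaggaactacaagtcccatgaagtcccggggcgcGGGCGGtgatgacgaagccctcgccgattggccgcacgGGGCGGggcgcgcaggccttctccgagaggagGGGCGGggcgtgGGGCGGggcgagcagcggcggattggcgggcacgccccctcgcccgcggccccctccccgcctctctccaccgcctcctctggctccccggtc
RAB29, chr1:205775483-205775732, reverse strand: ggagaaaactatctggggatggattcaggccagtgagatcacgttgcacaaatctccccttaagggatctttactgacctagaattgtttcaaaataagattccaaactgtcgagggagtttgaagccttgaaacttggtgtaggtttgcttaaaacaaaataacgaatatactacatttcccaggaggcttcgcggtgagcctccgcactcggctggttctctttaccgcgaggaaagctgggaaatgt
RAB27A, chr15:55319124-55319373, reverse strand: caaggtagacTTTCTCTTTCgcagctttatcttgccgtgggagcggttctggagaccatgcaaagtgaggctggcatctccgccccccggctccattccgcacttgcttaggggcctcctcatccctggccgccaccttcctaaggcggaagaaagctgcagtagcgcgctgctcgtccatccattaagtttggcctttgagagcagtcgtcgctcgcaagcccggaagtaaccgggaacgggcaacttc

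RAB8A held 2 GC boxes and RAB8B 4, while RAB29 held 0. The GC content of the windows was 72.4% in RAB8A, 77.2% in RAB8B, 45.2% in RAB29 and 58.8% in RAB27A, beside a median of 65.6% over the 45 members and 58.0% over 27305 RefSeq promoters. A GC box was found in 37 of the 45 members (82.2%) and in 42.3% of all promoters. The set of all promoters was not limited to the genes measured here and was not matched to the members in GC content. The interferon element core occurred in RAB27A alone (2.22% of members against 3.07% of all promoters), where its first base lies 240 bases before the start. The core of the CLEAR element of lysosomal genes (CACGTG) was in 11.1% of members and 6.49% of all promoters, in RAB21, RAB24, RAB31, RAB4A and RAB5A, none of them past the threshold. CANNTG, which includes it, was in 53.3% and 62.2%. The aryl hydrocarbon element core (GCGTG) was in 40.0% and 31.9%, and the antioxidant element core (TGACNNNGC) in 8 of 45 members and 3013 of 27305 promoters. These matches describe letters in a window on both strands.

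Regulated secretion held the largest change. RAB26, a GTPase of secretory granules in exocrine cells and of synaptic vesicles, read −0.41, −0.30 and −0.31 in control arrays 1 to 3 and 0.41, 0.37 and 0.27 in cocoa arrays 1 to 3. Every cocoa array lay above every control array. The rise was 1.61-fold (log2 difference 0.69, SE 0.0687, 95% interval 0.53 to 0.84, adjusted p = 0.000412), and 249 of 19775 genes had a larger one. Its 2 probe sets rose alike, by 0.59 (SE 0.0736, adjusted p over probe sets 0.00301) and 0.78 (SE 0.0944, 0.00265). The call held in all 6 fits that left out 1 array (adjusted p 0.0012 to 0.00301), and the difference was 0.69 with either the 18S or the 5′ minus 3′ covariate.

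RAB37, the closest relative of RAB26 and a GTPase of mast cell and other granules, read 0.04, 0.06 and −0.20 in the controls and −0.19, 0.14 and −0.04 with cocoa. The groups overlapped, and the difference was −0.001 (SE 0.102, interval −0.23 to 0.23), or −0.14 given 18S as a covariate (adjusted p = 0.492). RAB26 minus RAB37 was −0.45 to −0.11 in control arrays and 0.24 to 0.60 in cocoa arrays, a shift of 0.69 (SE 0.151). Its exact two-sided permutation p was 0.10, the smallest that 3 against 3 arrays can give (0.44 after Benjamini-Hochberg adjustment over 22 pairs of close relatives).

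RAB27A and RAB27B, which dock granules at the plasma membrane and serve exosome release, had differences of the same size (RAB27A minus RAB27B, SE of the shift 0.0553). RAB27A read −0.08 in each control array and 0.17, 0.16 and 0.03 with cocoa (difference 0.20, SE 0.066, adjusted p = 0.0825). RAB27B read −0.10, −0.06 and −0.03 in the controls and 0.28, 0.10 and 0.03 with cocoa (0.20, SE 0.077, adjusted p = 0.128). In both genes the arrays did not overlap, but neither gene mean passed the threshold. The same holds for RAB3D, the RAB3 form of zymogen and other exocrine granules, with 0.08, −0.08 and −0.14 against 0.11, 0.21 and 0.16 (0.21, SE 0.0752, adjusted p = 0.109).

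The neuronal and endocrine forms RAB3A (0.13), RAB3B (0.03) and RAB3C (0.03) overlapped between the groups. In this role 1 of 8 measured genes rose, 0 fell in limma and 7 did not pass. The called share was 12.5%, beside 13.5% of all genes. The median difference was 0.165, 4 of the 8 genes did not overlap (all higher), against 15.4% of all genes in that direction, and 7 of 8 lay above 0, as did 9184 of all 19775.

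Among genes of polarised transport and the cilium, RAB8A fell, while its near copy RAB8B did not pass. RAB8A, which carries cargo to the apical membrane and the primary cilium, read 0.25, 0.24 and 0.02 in the controls and −0.02, −0.29 and −0.18 with cocoa. All cocoa arrays lay below all controls, with control array 3 and cocoa array 1 close to each other. RAB8A fell 1.26-fold (−0.34, SE 0.0927, adjusted p = 0.0417). Of 6 fits that dropped an array 2 kept this call, which was lost without control array 1 (adjusted p = 0.138), control array 2 (0.152), cocoa array 2 (0.122) or cocoa array 3 (0.105). The difference was −0.24 with the 18S covariate (adjusted p = 0.237) and −0.23 with the 5′ minus 3′ covariate (0.188). The single probe set of the gene had an adjusted p of 0.0845 over probe sets.

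RAB8B read −0.07, −0.10 and −0.19 in the controls and 0.47, −0.06 and 0.33 with cocoa. Cocoa array 2, the array with the highest 18S signal, lay just above the controls and the other cocoa arrays far above. The difference was 0.37 (SE 0.123, adjusted p = 0.0817). It was 0.52 without cocoa array 2 (adjusted p = 0.00714), 0.58 (0.0158) once 18S was a covariate, and 0.59 (0.00428) for 5′ minus 3′ as covariate. The part of the RNA control signals in this result was not tested beyond these fits.

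Within RAB8B 1 of 3 probe sets passed, with 0.15, 0.22 and 0.27 in cocoa arrays 1 to 3 (difference 0.47, SE 0.0853, adjusted p over probe sets 0.014). The other probe sets, at 0.25 and 0.40, were low in cocoa array 2, with −0.16 and −0.25. RAB8A minus RAB8B was 0.32, 0.35 and 0.21 in the controls and −0.50, −0.23 and −0.51 with cocoa. This shift of −0.71 (SE 0.0996) was the largest of the 22 pairs of relatives, and the control and cocoa arrays did not overlap in it. Its exact two-sided permutation p was 0.10, the smallest possible, and 0.44 adjusted over the pairs. In all, 5 of the 22 pairs had this p. The others were RAB26 with RAB37 (0.69), RAB4A with RAB4B (−0.39), RAB3B with RAB3D (−0.17) and RAB40B with RAB40C (0.23).

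RAB13, a GTPase of tight junction transport, read −0.05, −0.14 and −0.05 in the controls and 0.05, 0.23 and 0.12 with cocoa (0.21, SE 0.0708, adjusted p = 0.084). RAB23, a brake on Hedgehog signalling, differed by −0.16 (adjusted p = 0.138) and RAB28, a ciliary GTPase, by −0.13 (0.275). In both, the cocoa arrays lay below the controls. RAB10, which acts in basolateral and glucose transporter traffic, differed by −0.04 (interval −0.18 to 0.11). In this role 1 of 6 fell, 0 rose in limma and 5 did not pass. The called share was 16.7%, beside 13.5% of all genes. In 5 of 6 the groups did not overlap, 2 higher and 3 lower (median −0.081). Of all genes 15.4% were higher and 17.0% lower without overlap.

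**Figure D2:**
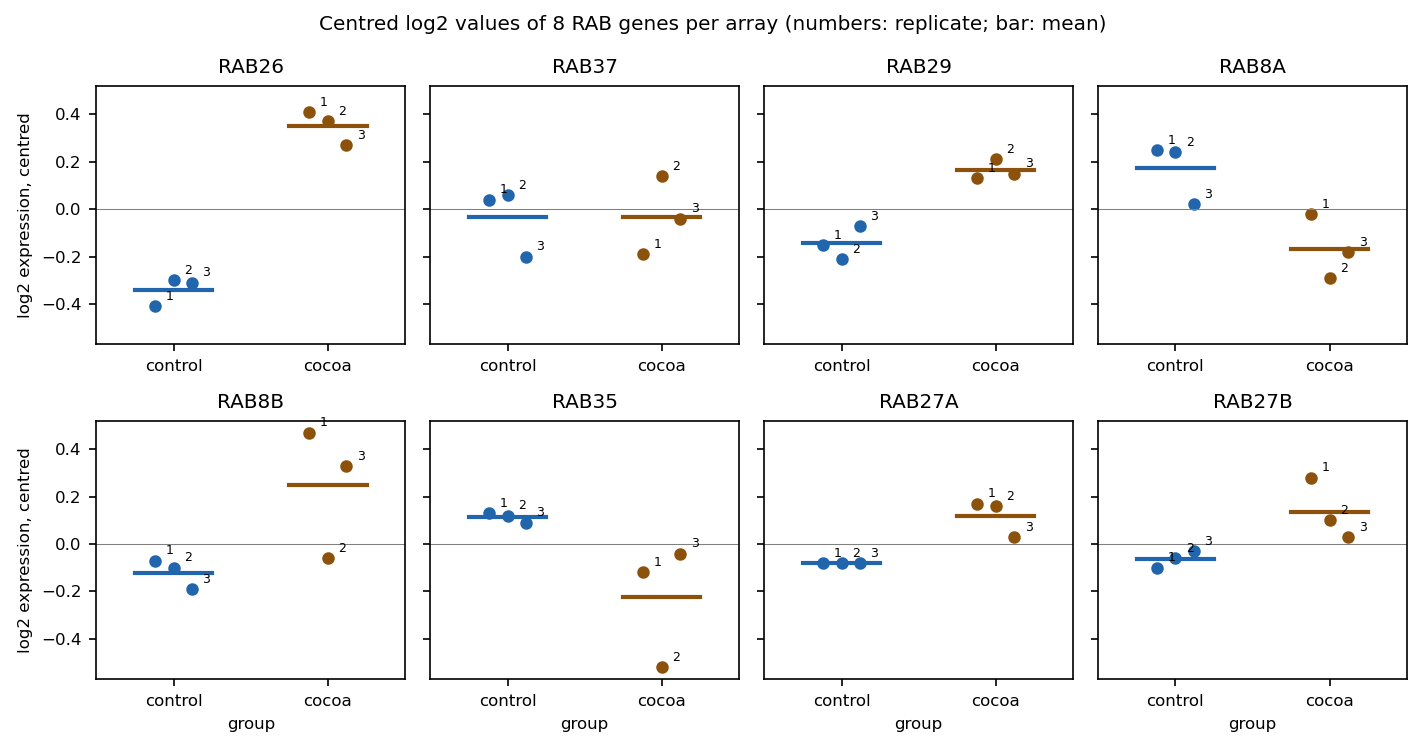
Centred log2 values of 8 RAB genes in each array; points are arrays labelled with the replicate number, bars are group means (n = 3). RAB26 and RAB29 lie higher and RAB8A lower in all cocoa arrays, and cocoa array 2 is the lowest of the cocoa arrays in RAB8B (−0.06) and RAB35 (−0.52).

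RAB29, which acts at the Golgi and lysosome and can recruit the kinase LRRK2, was the third member past the threshold. It read −0.15, −0.21 and −0.07 in the controls and 0.13, 0.21 and 0.15 with cocoa, with no overlap. The rise was 1.24-fold (0.31, SE 0.0662, adjusted p = 0.0156). Its 3 probe sets all lay above 0, at 0.14, 0.38 and 0.40, and the last of them passed (adjusted p over probe sets 0.0247). The call was lost without control array 1 (adjusted p = 0.0564) or control array 2 (0.0825). Without cocoa array 2 it was kept only just (limma adjusted p 0.05 when rounded). With the 18S covariate the difference was 0.29 (0.0895) and with the 5′ minus 3′ covariate 0.27 (0.0768).

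RAB24, a GTPase of the autophagy route, read 0.05, 0.18 and 0.25 in the controls and −0.05, −0.06 and −0.08 with cocoa. The cocoa arrays were tight and all below the controls, but the difference did not pass (−0.23, SE 0.0704, adjusted p = 0.0652). The main late endosome GTPase RAB7A, measured by 7 probe sets, differed by −0.08 (interval −0.24 to 0.07), and RAB9A, which returns receptors to the Golgi, by 0.03 (−0.14 to 0.19). The melanosome GTPases RAB32 (−0.002) and RAB38 (0.02), and RAB7B (−0.07), RAB9B (0.001), RAB12 (−0.06), RAB39A (0.04) and RAB39B (−0.09) overlapped as well. Of 11 genes in this role 1 rose, 0 fell in limma and 10 did not pass (median −0.002). The called share was 9.09%, beside 13.5% of all genes.

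Of the 9 recycling GTPases 0 passed in limma, beside 13.5% of all genes. At an unadjusted p below 0.05 there were 3 (33.3%), beside 27.1% of all genes. RAB35, which returns cargo from endosomes to the cell surface, read 0.13, 0.12 and 0.09 in the controls and −0.12, −0.52 and −0.04 with cocoa. All cocoa arrays were lower, and cocoa array 2 far lower than the others. The difference was −0.34 (SE 0.114, adjusted p = 0.0853), as large as that of RAB8A, and −0.18 with the 18S covariate (adjusted p = 0.415). Among the fits without 1 array RAB35 passed only without cocoa array 3 (limma adjusted p = 0.0496). The value of cocoa array 2 came mostly from 1 of 3 probe sets, which read −1.17 there.

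RAB4A, a GTPase of fast recycling, read 0.14, 0.11 and 0.01 in the controls against a value just below 0, −0.22 and −0.18 with cocoa (−0.22, SE 0.0783, adjusted p = 0.0998), and its relative RAB4B differed by 0.17 (SE 0.102, adjusted p = 0.339). RAB17, an epithelial GTPase of transcytosis, was higher in all cocoa arrays (−0.01, −0.20 and −0.22 against 0.05, 0.03 and 0.01) with a difference of 0.17 (adjusted p = 0.177). The slow recycling GTPases RAB11A (0.02, interval −0.12 to 0.16), RAB11B (−0.01, −0.20 to 0.18) and the epithelial RAB25 (0.04, −0.12 to 0.20) overlapped between the groups. The 3 probe sets of RAB11A disagreed, at −0.19 with all cocoa arrays lower and at 0.08 and 0.17 with all higher, and none passed (adjusted p over probe sets 0.215, 0.576 and 0.272). The first is the only one without the suffix of probe sets that may match several transcripts. RAB14 (−0.07) and RAB15 (−0.08) overlapped too.

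In the early endosome role 0 of 7 passed in limma, beside 13.5% of all genes. An unadjusted p below 0.05 was found for 1 gene (14.3%), beside 27.1% of all genes. That gene was RAB21, which serves integrin uptake and read 0.10, 0.11 and 0.04 against −0.06, −0.10 and −0.07 (−0.16, SE 0.0606, adjusted p = 0.119). The fusion GTPases RAB5A (0.10), RAB5B (0.26) and RAB5C (0.05) overlapped between the groups. RAB5B had the widest spread of them, with 0.05, −0.05 and −0.35 against 0.26, 0.28 and −0.13 (SE 0.132, adjusted p = 0.256). RAB20 (0.04), RAB22A (0.11) and RAB31 (0.09) lay between.

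Of 12 genes of ER and Golgi transport (median 0.007) 0 passed in limma, beside 13.5% of all genes. An unadjusted p below 0.05 was found for 1 gene (8.33%), beside 27.1% of all genes. That gene was RAB30, higher in all cocoa arrays (0.19, limma adjusted p = 0.116), whose probe sets are given below. RAB43, a Golgi GTPase, had the lowest difference of the 12, with −0.03, 0.47 and 0.15 against −0.25, 0.02 and −0.02. Its groups overlapped (−0.28, SE 0.125, adjusted p = 0.192). The difference was −0.14 without control array 2 (adjusted p = 0.525) and −0.47 with 18S as a covariate (0.0623). The GTPases of ER export RAB1A (−0.09, interval −0.26 to 0.07) and RAB1B (−0.004, −0.18 to 0.18) and of retrograde Golgi transport RAB2A (−0.09), RAB2B (0.06), RAB6A (−0.07) and RAB6B (−0.03) overlapped. So did RAB18 of lipid droplets and the ER (0.10), RAB33A (0.08), RAB33B (0.09) and RAB36 (0.02). The 4 genes of the last group, the SOCS-box members RAB40A (−0.09), RAB40B (0.09) and RAB40C (−0.14) with RAB42 (0.10), had 0 calls in limma and 0 at an unadjusted p below 0.05. RAB40C was lower in all cocoa arrays.

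Single probe sets gave more calls than gene means. Of the 138 RAB probe sets 10 passed (7.25%), 9 higher and 1 lower, where 7.98% of 54613 probe sets did (4.68% higher and 3.30% lower). They fell on 9 genes, and 7 of these did not pass as gene means: RAB3D, RAB8B, RAB21, RAB27A, RAB27B, RAB30 and RAB40B. Among 35 genes read more than once, 14 had probe sets that all pointed one way and 21 did not, and 0 genes had probe sets called both ways. Probe sets of 1 gene can read different transcripts or parts of a transcript, and some may be near background, which a centred table does not show.

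RAB30, a Golgi GTPase, was split most. One probe set read −0.51, −0.42 and −0.11 in the controls and 0.65, 0.61 and 0.11 with cocoa (0.80, SE 0.161, adjusted p over probe sets 0.0203), and a second differed by 0.69 (0.0647). The other 3 differed by −0.34, −0.20 and −0.01, and the gene mean by 0.19 (SE 0.0698, adjusted p = 0.116). In RAB27A the 5 probe sets ran from −0.06 to 0.45, and the highest, −0.30, −0.18 and −0.17 against 0.20, 0.32 and 0.17, passed (0.0149). It carries the suffix of probe sets that may match several transcripts, as do all 5 of RAB27A. In RAB27B 1 of 3 passed, with −0.31, −0.38 and −0.12 against 0.23, 0.44 and 0.12 (0.53, SE 0.107, 0.0204), while the others lay at 0.00 and 0.06.

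RAB40B had a called probe set at 0.42 (SE 0.0774, adjusted p over probe sets 0.0144) beside one at −0.26 that may match several transcripts. Without such probe sets the gene differed by 0.26 (adjusted p = 0.0379) in place of 0.09. RAB3D had 1 of 2 probe sets called, at 0.38 (0.0465) beside 0.03. RAB21 had the single lower call, at −0.31 (0.048), and its other probe sets lay at −0.22, −0.17 and 0.05.

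**Figure D3:**
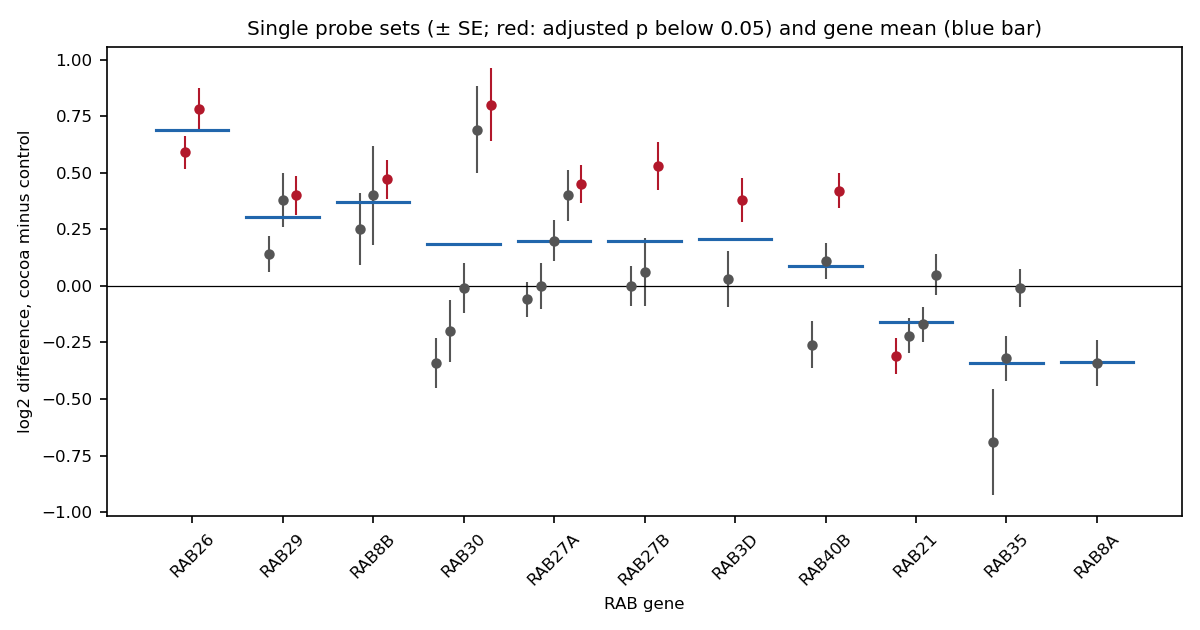
Difference in log2 expression, cocoa minus control, of single probe sets (points, ± SE of the limma fit) for 11 RAB genes, with the gene mean as a blue bar; red marks an adjusted p below 0.05 over all probe sets. The 2 probe sets of RAB26 lie together at 0.59 and 0.78, while those of RAB30 run from −0.34 to 0.80.

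Genes that prenylate, load, switch off and read RAB proteins were followed as the partners of the family. In 4 lists with 117 measured genes 15 rose, 8 fell and 94 did not pass, which is 19.7% against 13.5% of all genes (median 0.05). Of 6 genes of prenylation and the GDI cycle 1 rose, 2 fell and 3 did not pass. RABAC1, a membrane receptor for prenylated RAB proteins, read −0.29, −0.45 and −0.37 in the controls and 0.55, 0.43 and 0.29 with cocoa, a rise of 1.73-fold (0.79, SE 0.0829, adjusted p = 0.000537). CHML, an escort protein that presents new RAB proteins for prenylation, fell by 0.46 (SE 0.0658, adjusted p = 0.00232). RABGGTB, a subunit of the prenylating enzyme, fell by 0.29 (SE 0.0718, adjusted p = 0.0279), and its call was kept only in the fit without cocoa array 1 of the 6 without 1 array (adjusted p 0.0256 to 0.10). With 18S as a covariate its difference was −0.21 (0.172), and with the 5′ minus 3′ covariate also −0.21 (0.126). Of this list 2 genes passed with either covariate, against 5.58% (18S) and 7.14% (5′ minus 3′) of all genes.

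Of 45 effectors 7 rose, 3 fell and 35 did not pass (22.2% called; median 0.112). SYTL1, a RAB27 effector of granule docking, read −0.35, −0.43 and −0.38 against 0.46, 0.47 and 0.35 (0.81, SE 0.0659, adjusted p = 0.00012). OPTN, an autophagy receptor that binds RAB8, read −0.29, −0.37 and −0.40 against 0.31, 0.66 and 0.40 (0.81, SE 0.0925, adjusted p = 0.000801). RILPL1, which binds RAB8 and RAB10 phosphorylated by LRRK2, rose by 0.74 (SE 0.0795, adjusted p = 0.000607), and APPL2, a RAB5 effector of signalling endosomes, by 0.57 (SE 0.0768, adjusted p = 0.00171). The arrays of these 4 genes did not overlap, and each call was kept in all 6 fits without 1 array. SYTL1, RILPL1 and APPL2 were each read by only 1 probe set, as were RABAC1 and RABGGTB.

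Of 32 exchange factors 3 rose, 2 fell and 27 did not pass (15.6% called; median 0.015). DENND2B, an exchange factor of RAB13, rose by 0.48 (SE 0.0942, adjusted p = 0.00994, or 0.0508 without control array 2). The rise was 0.40 with 18S as a covariate, which did not pass (0.0818), and 0.36 with 5′ minus 3′, which passed (0.0482). DENND3, an exchange factor of RAB12, rose by 0.43 (SE 0.0594, adjusted p = 0.002). SBF2, a myotubularin with an exchange domain, rose by 0.36 (SE 0.0789, adjusted p = 0.016), but not past the threshold without control array 1 (0.0622) or control array 2 (0.0709). MON1A, part of the complex that loads RAB7, fell by 0.41 (SE 0.0697, adjusted p = 0.00529). DENND2B and MON1A were each read by only 1 probe set, which may match several transcripts.

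Of 34 GTPase-activating proteins 4 rose, 1 fell and 29 did not pass (14.7% called; median 0.06). TBC1D8B, a TBC-domain protein, read −0.58, −0.55 and −0.36 against 0.44, 0.56 and 0.32, a rise of 1.92-fold (0.94, SE 0.0868, adjusted p = 0.000267). It was the largest of the 117. TBC1D30, which acts on RAB8A, fell by 0.36 (SE 0.0716, adjusted p = 0.0103; 0.0526 without control array 2). RAB3GAP1, the catalytic subunit of the complex that switches off RAB3, rose by 0.24 (SE 0.0613, adjusted p = 0.0308), and TBC1D9 also by 0.24 (SE 0.0671, adjusted p = 0.0472). The calls of RAB3GAP1 and TBC1D9 were kept only without cocoa array 1 among the fits without 1 array (adjusted p 0.0341 to 0.123 and 0.0285 to 0.169). With 18S as a covariate the differences were −0.29 for TBC1D30 (adjusted p = 0.0799), 0.21 for RAB3GAP1 (0.151) and 0.21 for TBC1D9 (0.201). With the 5′ minus 3′ covariate they were −0.28 (0.0511), 0.21 (0.121) and 0.21 (0.162) in the same order. With the 18S covariate 1 gene of this list passed and 6 effectors did, against 5.58% of all genes.

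**Figure D4:**
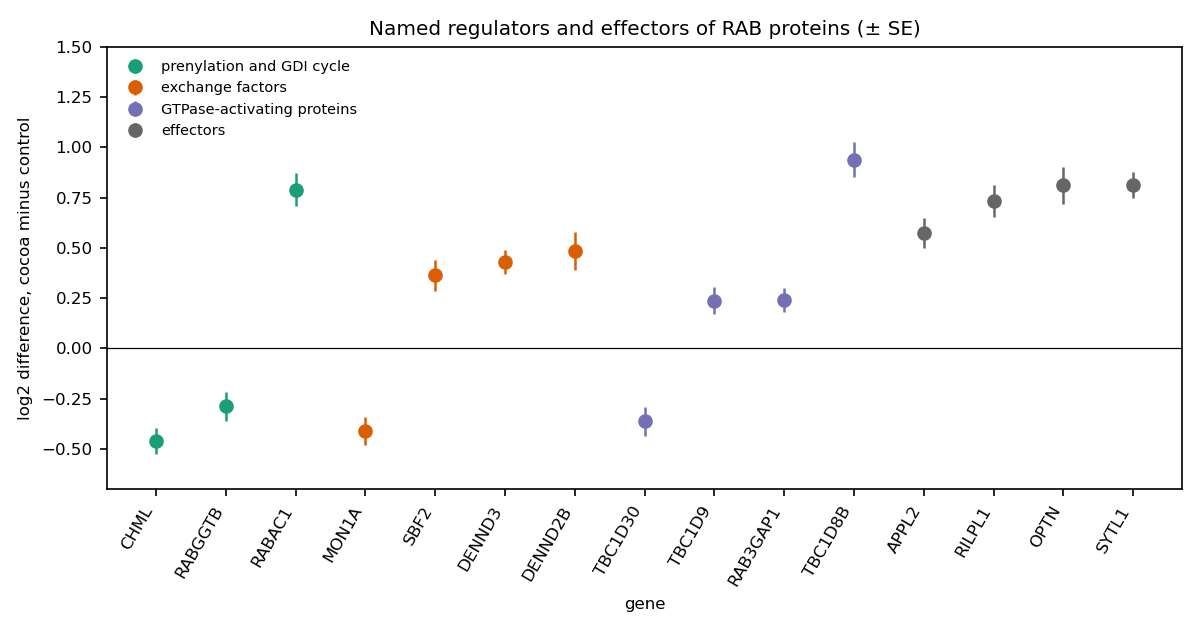
Difference in log2 expression, cocoa minus control, of the 15 named regulators and effectors of RAB proteins, with bars of ± SE of the limma fit (n = 3 arrays per group) and colours for the 4 lists. The rises of TBC1D8B (0.94), SYTL1 (0.81), OPTN (0.81) and RABAC1 (0.79) exceed that of every RAB gene in size.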

How the data were processed

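Total RNA of 6 HT29 cultures was labelled with biotin and hybridised to Affymetrix U133 Plus 2.0 arrays, per the labels' protocols and the series text. The authors' deposited log2 values were made with RMA, per the submitters' processing notes, and GeneSpring GX is named in the series text; no version or filter is named in the sources used here. The table holds 54675 probe sets, and the median of each over the arrays lies within 5e-07 of 0, so values are centred. That the base is 2 is inferred from RMA. Signal over background is therefore unknown.

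Of 54613 probe sets without 62 control probe sets, 41091 listed 1 gene symbol, 1801 several and 11721 none. The gene identifiers of all 138 RAB probe sets matched the RefSeq table, and 0 symbols differed. Probe sets of 1 gene were averaged. Cocoa minus control was fitted with limma 3.58.1 (R 4.3.3, lmFit and eBayes) over 19775 genes and, apart, over single probe sets, with Benjamini-Hochberg adjustment over all of them and a threshold of 0.05. Errors are moderated standard errors, and folds are antilogs of the log2 differences. Pairs of relatives were compared by an exact permutation test over arrays. The fit was tested on simulated data. The number of arrays limits the precision. No array was a copy of another (SD of the difference between arrays of a group 0.175 to 0.264).

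Members, role lists, partner lists, pairs and motifs were chosen with earlier results of these data known. Genes were named by rule: every member past the threshold and its close relatives, the 3 highest and 3 lowest others, members with a called probe set, and up to 4 called genes of each partner list by size. The other members are given with their values by role. Alternatives were a replicate block, a robust prior, array weights, quantile normalisation, median centring, no _s_at or _x_at probe sets, the median of probe sets, the covariates named above, a 1.2-fold threshold and leaving out each array. Scanner files and scan dates were not analysed here. Tables and plots used Python 3.11.15 with numpy 2.4.6, pandas 2.3.3 and matplotlib 3.10.9.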

Additional observations from a re-analysis of the deposited data

How the results depend on the processing

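The count of RAB genes past the threshold was 3 in the reported fit, 2 to 3 under most alternatives and 7 with array weights (16.7% of all genes), which added RAB4A, RAB8B, RAB13 and RAB24. Leaving out 1 array gave 1 to 4, and RAB26 alone was left without control array 1 or control array 2. RAB26 passed in all 15 alternative fits, RAB29 in 11 and RAB8A in 7. All genes past the threshold numbered 1103 with the 18S covariate, 1411 with the 5′ minus 3′ covariate and 1315 to 2881 without 1 array, against 2666. Exchange factors called were 3 with the 18S covariate and 2 to 7 without 1 array, against 5. GTPase-activating proteins called were 1 with either covariate, 2 without _s_at and _x_at probe sets and 1 to 4 without 1 array, against 5. Effectors called were 6 with either covariate and 5 to 9 without 1 array, against 10. With the replicate number as a block 2 RAB genes passed (RAB26 and RAB29), 2 GTPase-activating proteins, 6 effectors and 1947 genes in all (9.85%). Whether the numbers pair the arrays is not known. Deviations of same-numbered arrays correlated at −0.12, −0.009 and −0.003 over genes, and those of differently numbered arrays at −0.114 to 0.121. These values cannot decide it, since the deviations within a group of 3 sum to 0. Of 461 values of the 31 named genes under the alternatives, 407 stayed on their side of the threshold, 46 lost and 8 gained the call, and 0 calls reversed. A filter on dim probe sets was not run, since the table holds no levels, and what signal over background limits is unknown.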

Other observations

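Transcripts named after RAB genes but outside the family rule were looked at after their values were seen. RABL6, a RAB-like GTPase, read 0.16, 0.08 and 0.11 in the controls and −0.15, 0.04 and −0.27 with cocoa, without overlap (−0.24, SE 0.0847, limma adjusted p = 0.0934). RABL3, another RAB-like GTPase, differed by −0.06 (SE 0.104, limma adjusted p = 0.782). The noncoding neighbours RAB11B-AS1 (0.16), RAB17-DT (−0.08) and RAB30-DT (0.04) overlapped between the groups. Whether probe sets of RAB11B and of its antisense transcript read a shared stretch was not checked. Of the 11 probe sets that list a RAB gene together with other genes 1 passed over all probe sets (4 at an unadjusted p below 0.05), with differences from −0.37 to 0.43.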
